A study of Mus musculus with 2 samples.

Results

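The 10 tubulin isotype genes Tuba1a, Tuba1b, Tuba1c, Tuba4a, Tuba8, Tubb2a, Tubb2b, Tubb4b, Tubb5 and Tubb6 were examined in the newborn mouse heart. They were chosen by gene symbol, 10 of the 55536 annotated genes in the gene tables, and all 10 were found in both libraries. Total RNA was sequenced in 2 libraries of whole heart, from B6CASTF1/J females aged 4 days, with no treatment named in the labels, 300 ng of starting RNA and ERCC spike-ins. The labels number the libraries biological replicates 1 and 2 but list 1 donor for both. Separate animals are therefore assumed from the numbers, and the spread between the libraries may in part be technical. There is 1 group, so no contrast of conditions exists. The smallest two-sided permutation p for 2 libraries is 0.5, and no p-value is given.

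Microtubules are hollow filaments built from dimers of one alpha and one beta tubulin. Mammals make each kind from several genes, the isotypes, whose proteins are nearly alike along their length and differ most in an acidic tail at the C-terminus. The tail lies on the outside of the filament, where motors and other proteins bind and where enzymes add or remove glutamates and, on most alpha tubulins, a final tyrosine. In cardiomyocytes the network around the nucleus and along the sarcomeres carries organelles and messenger RNA and adds to the stiffness of the cell, and in cycling cells the same subunits build the spindle. Free tubulin dimers limit tubulin messenger RNA, because the factor TTC5 binds the first residues of a nascent tubulin chain and marks its message for decay.

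The coding starts below are shown because those first residues are what TTC5 reads. Each line gives the first 30 bases of the coding sequence in GENCODE M21 on mm10, 5′ to 3′, with the first 4 codons in capitals. The genes lie on chromosomes 15, 1, 6, 17, 2 and 13, in the order of the lines.
Tuba1b: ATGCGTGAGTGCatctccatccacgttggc
Tuba4a: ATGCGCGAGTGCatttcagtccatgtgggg
Tuba8: ATGAGGGAATGCatatcggtccatgtgggt
Tubb5: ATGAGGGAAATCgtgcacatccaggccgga
Tubb4b: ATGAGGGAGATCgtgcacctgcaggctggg
Tubb2a: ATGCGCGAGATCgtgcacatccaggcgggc
The codons differ between genes, but the first 4 codons translate to the same residues in all 5 alpha isotypes, and to the same residues in all 5 beta isotypes. The kinds differ at the fourth codon.

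The coding ends are shown because the tail is where the isotypes part, and because the last codon of an alpha gene decides whether its protein is made with a final tyrosine. Each line gives the last 63 bases of the coding sequence, with the last codon and the stop codon in capitals.
Tuba4a: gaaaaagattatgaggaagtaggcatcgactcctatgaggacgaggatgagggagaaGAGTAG
Tuba8: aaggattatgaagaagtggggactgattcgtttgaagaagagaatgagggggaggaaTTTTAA
Tubb5: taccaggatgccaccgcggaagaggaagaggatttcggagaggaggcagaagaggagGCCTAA
Tubb2a: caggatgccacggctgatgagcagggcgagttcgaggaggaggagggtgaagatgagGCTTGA
Tubb2b: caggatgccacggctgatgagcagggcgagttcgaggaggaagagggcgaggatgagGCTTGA
Tuba1a, Tuba1b and Tuba1c end in a tyrosine codon, Tuba4a in a glutamate codon and Tuba8 in a phenylalanine codon. Counted from 1 at the 5′ end of the printed stretch, Tubb2b differs from Tubb2a by 3 bases, G42A, T48C and A51G. The pair does not differ in the translated tail. Of the last 20 residues, 10 to 12 were acidic in the alpha isotypes and 11 in each beta isotype. A lysine codon stands at position 40, where luminal acetylation takes place, in 4 of the 5 alpha genes, and Tuba8 has an alanine codon there.

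The translated coding sequences hold 448 to 451 residues in the alpha isotypes and 444 to 447 in the beta isotypes. Over the 25 alpha to beta pairs, 38.9% to 41.5% of aligned residues were identical, which marks the kinds as distant relatives. Within the alpha kind identity ran from 90.0% to 99.6%, with Tuba1a and Tuba1b closest and Tuba8 farthest from the others. Within the beta kind it ran from 90.2% to 99.6%, with Tubb2a and Tubb2b closest and Tubb6 farthest. The coding bases were 98.3% identical between Tuba1a and Tuba1b, and 96.5% between Tubb2a and Tubb2b. Closeness in sequence went with closeness on the chromosome. Tuba1b, Tuba1a and Tuba1c lie within 106686 nt of chromosome 15, and Tubb2a and Tubb2b within 56193 nt of chromosome 13.

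The depth behind these genes was high. The 10 genes took 83902 of the 36175363 expected counts of replicate 1, and 75015 of the 32509660 of replicate 2. The smallest member count was 564, for Tuba8 in replicate 1. For genes with no counts the upper limit is 3 counts, which corresponds to 0.0829 CPM in replicate 1 and 0.0923 CPM in replicate 2 and covers counting error only. The libraries were cardiac by their markers. The 8 cardiomyocyte markers summed to 30614 and 30537 TPM (length-scaled abundance as a part of the library total), led by the myosin light chain Myl2 at 8324 ± 178 and the actin Actc1 at 7516 ± 367 (SD, n = 2). They differed in blood and in traces of other tissues. The 7 erythroid markers found summed to 17279 and 221 TPM and the 9 skeletal muscle markers to 42.3 and 6.74 TPM, in replicates 1 and 2.

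All 10 isotypes were expressed, with at least 1 TPM in both libraries, as were 13750 and 13953 of all annotated genes in replicates 1 and 2. TPM divides counts by transcript length, so levels can be compared between genes. Each library has 2 deposited quantifications, and the levels below are those of the gene tables, called the first. The 10 genes summed to 1641 and 1669 TPM, which is 0.166% ± 0.00198 of all TPM (SD, n = 2) and 0.363% ± 0.00420 of the TPM of nuclear protein-coding genes.

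Summed over all annotated transcripts, alpha and beta tubulin RNA was present in nearly equal amounts, the kinds of subunit that join one to one in the dimer. The 5 alpha genes summed to 844 and 854 TPM and the 5 beta genes to 798 and 815 TPM. The ratio of alpha to beta was 1.06 in replicate 1 and 1.05 in replicate 2, a log2 ratio of 0.07 ± 0.01 (SD, n = 2). Both libraries lay on the alpha side, by a few percent. The second quantification gave 0.10 ± 0.03 for the same log2 ratio. The near equality rests on TPM, since counts not divided by length gave -0.22, and it leaves out the processed pseudogenes described further on. It also includes transcripts annotated as not coding. Of these, Tubb5-204 had 19.04 and 23.55 TPM in replicates 1 and 2 in the first quantification, and 213 and 249 TPM in the second. No such alpha transcript was above 6.06 TPM. The ratio over coding transcripts alone was not computed. It would lie further to the alpha side in both quantifications, and most in the second, where the whole beta pool was 1087 and 1128 TPM. The near equality therefore does not extend to coding message in the second.

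**Figure D1:**
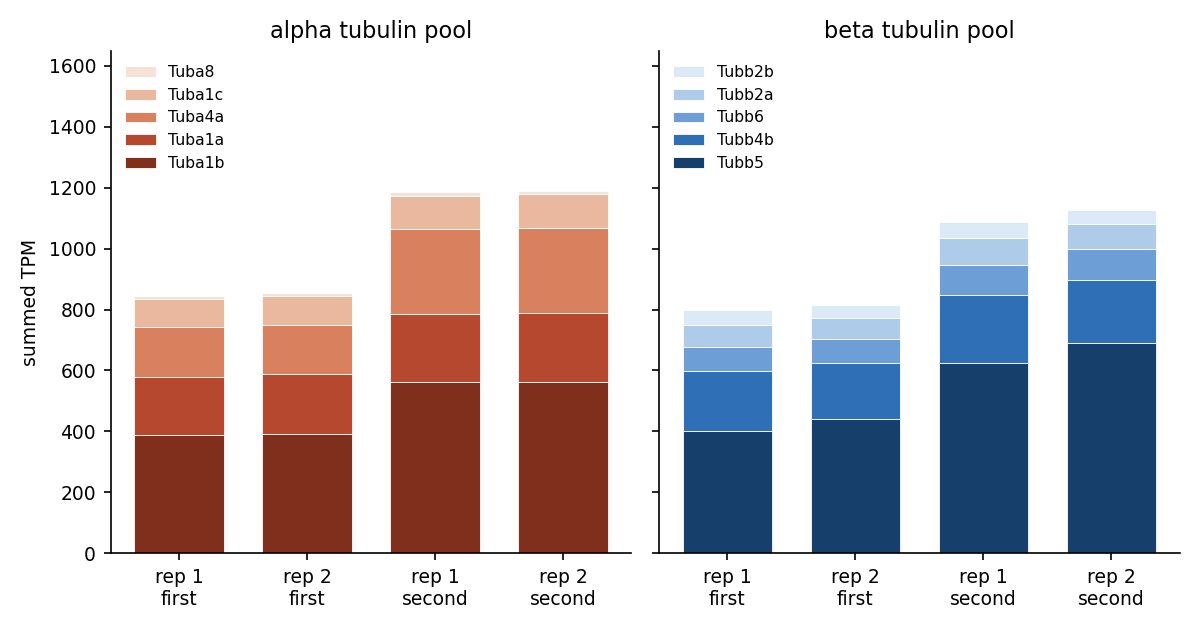
Summed TPM of the alpha isotypes (left) and beta isotypes (right) in replicates 1 and 2, by the first and the second quantification, with each bar divided by gene. In the first quantification the alpha pool stood at 844 and 854 TPM and the beta pool at 798 and 815 TPM, and all 4 pools were higher in the second.

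One gene dominated each pool. Tubb5, a beta tubulin found in most cell types and abundant in dividing cells, lies at chr17:35833921-35838306 on the minus strand (mm10, as all positions here). Summed over its transcripts, it was the highest of all 10, with 403 and 439 TPM in replicates 1 and 2. Its mean of 421 ± 25.9 TPM placed it at rank 137 of the 11935 nuclear protein-coding genes with at least 1 TPM in both libraries. It held 52.2% ± 2.43 of the beta pool. Tuba1b, a widely expressed alpha tubulin at chr15:98931425-98934565 on the minus strand, followed with 387 and 390 TPM, a mean of 389 ± 2.15 TPM at rank 160. It held 45.8% ± 0.162 of the alpha pool. Tubb5 was above Tuba1b in each library, by 0.06 and 0.17 on the log2 scale, so these leaders differ little.

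The second tier held 3 genes. Tuba1a, the alpha tubulin best known from the developing nervous system, lies at chr15:98949837-98953703 on the minus strand. It had 193 and 198 TPM and held 23.0% ± 0.256 of the alpha pool. Tubb4b, a broadly expressed beta tubulin also used in cilia, lies at chr2:25222160-25224702 on the minus strand. It had 196 and 185 TPM and held 23.6% of the beta pool. These neighbours in the order overlapped, Tubb4b being higher in replicate 1 and Tuba1a in replicate 2, with a mean log2 difference of 0.04 ± 0.09. Tuba4a, an isotype enriched in muscle and in platelets whose own message encodes no final tyrosine, lies at chr1:75214228-75219865 on the minus strand. It had 164 and 162 TPM. It held 19.2% of the alpha pool and lay below Tuba1a and Tubb4b in both libraries.

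The third tier lay below 100 TPM. Tuba1c, the remaining widely expressed alpha tubulin of the chromosome 15 cluster, lies at chr15:99029891-99038110 on the plus strand. It had 90.0 and 93.2 TPM, or 10.8% of the alpha pool. Tubb6, a divergent beta tubulin expressed in many non-neuronal tissues, lies at chr18:67390717-67402749 on the plus strand. It had 77.2 and 78.8 TPM, or 9.67% of the beta pool. Tubb2a and Tubb2b, near-identical beta tubulins prominent in neurons, lie at chr13:34074274-34078007 and chr13:34126748-34130466 on the minus strand. Tubb2a had 74.7 and 70.3 TPM, and Tubb2b had 47.0 and 41.6 TPM. Tubb2a was above Tubb2b in both libraries, by a mean log2 difference of 0.71 ± 0.06. Tubb6 was above Tubb2a by no more than 0.16 on the log2 scale in either library.

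Tuba8 stood apart at the bottom. This alpha tubulin, the most divergent of the 5 and described in heart, skeletal muscle and testis, lies at chr6:121210696-121226854 on the plus strand. It had 9.28 and 10.9 TPM. It ranked 6856 of 11935, while the other 9 members ranked between 137 and 1815. It held 1.19% of the alpha pool, 3.19 ± 0.12 log2 units below Tuba1c. Over the whole order, 8 of the 9 neighbouring pairs did not overlap between the libraries, the exception being Tuba1a and Tubb4b. Within the alpha kind and within the beta kind, all 4 neighbouring pairs of each did not overlap.

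**Figure D2:**
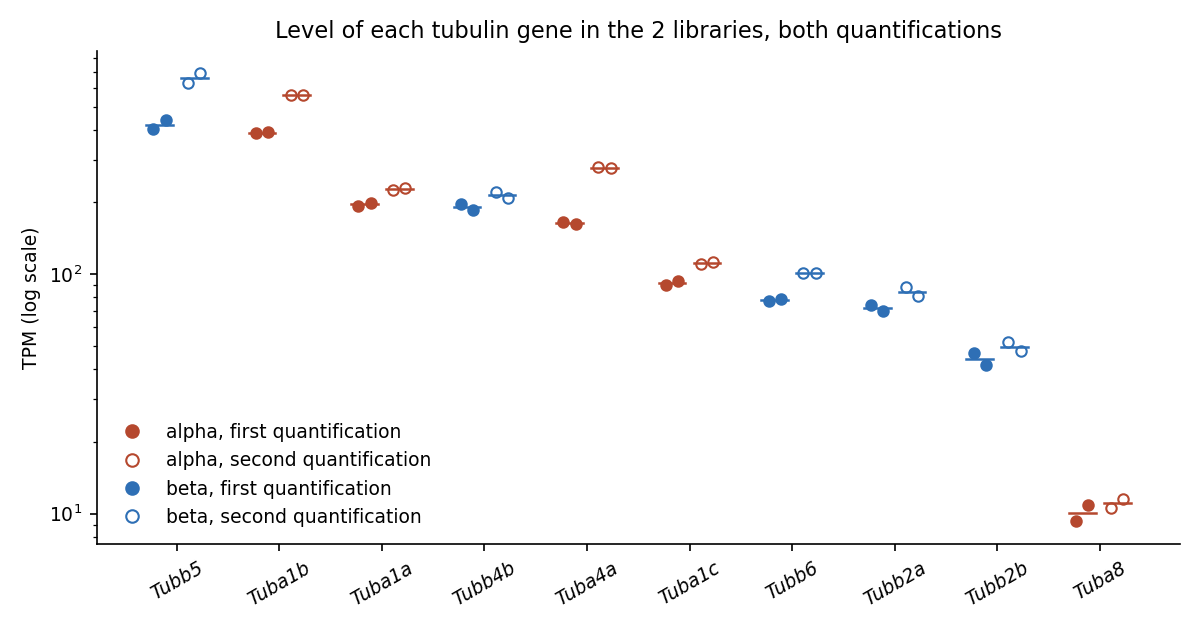
TPM on a log scale of each tubulin gene, ordered by the mean of the first quantification, with 1 point a library, replicate 1 left of replicate 2, and a bar at the mean. Filled points are the first quantification and open points the second. The libraries lie close together, while Tuba4a, Tubb5 and Tuba1b move most between quantifications.

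By the last codon, the 3 genes that encode a final tyrosine made up most of the alpha pool. Tuba1a, Tuba1b and Tuba1c summed to 670 and 682 TPM of the 844 and 854 TPM of alpha message. Tuba4a, which ends in a glutamate codon, supplied most of the rest. This is a sum of message and says nothing of the state of the protein, which enzymes change after translation.

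The 6 other alpha and beta tubulin genes of the annotation were close to absent. Together they reached 4.73 and 4.15 TPM, and 1 of 6 had at least 1 TPM in both libraries. That gene was Tubb4a, a neural and glial beta tubulin, at 2.61 and 2.93 TPM. Tubb3, the classic marker of neurons, had 1.10 and 0.79 TPM, from 54 and 34 counts. Tubb1, the beta tubulin of platelets and their precursors, had 0.76 and 0.25 TPM, from 28 and 8 counts. The testis isotypes Tuba3a and Tuba3b had at most 1.25 and 12 expected counts in a library. Tubal3 had 0 counts in both in the first quantification.

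The tubulins outside the dimer were present at lower levels than all members but Tuba8. Tubg1, the gamma tubulin that forms the ring from which microtubules grow, had 23.7 and 23.5 TPM, while its paralog Tubg2 had 2.92 and 2.81 TPM. Tubd1 and Tube1, the delta and epsilon tubulins of centrioles, had 4.31 and 4.27 TPM and 1.97 and 3.38 TPM. Tube1 was higher in replicate 2, also in counts, at 142 and 168. All 4 genes reached at least 1 TPM in both libraries.

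The libraries agreed on how much of each isotype was present to within 1.5-fold. Replicate 1 was set over replicate 2 on expected counts scaled by the trimmed mean of M-values (TMM), with a prior count of 0.5, and 0 of 10 members passed 1.5-fold in either direction. Of the 13828 genes with a mean of at least 1 TPM, 283 (2.05%) passed it toward replicate 1 and 263 (1.90%) toward replicate 2, so a count of 0 of 10 is near the background. The members' median log2 ratio was 0.07, against 0.00 over all these genes, whose middle 50% lay between -0.09 and 0.09. There is 1 library on each side, so the ratios have no replicate check, and the intervals below are exact 95% Clopper-Pearson intervals for counting error alone.

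**Figure D3:**
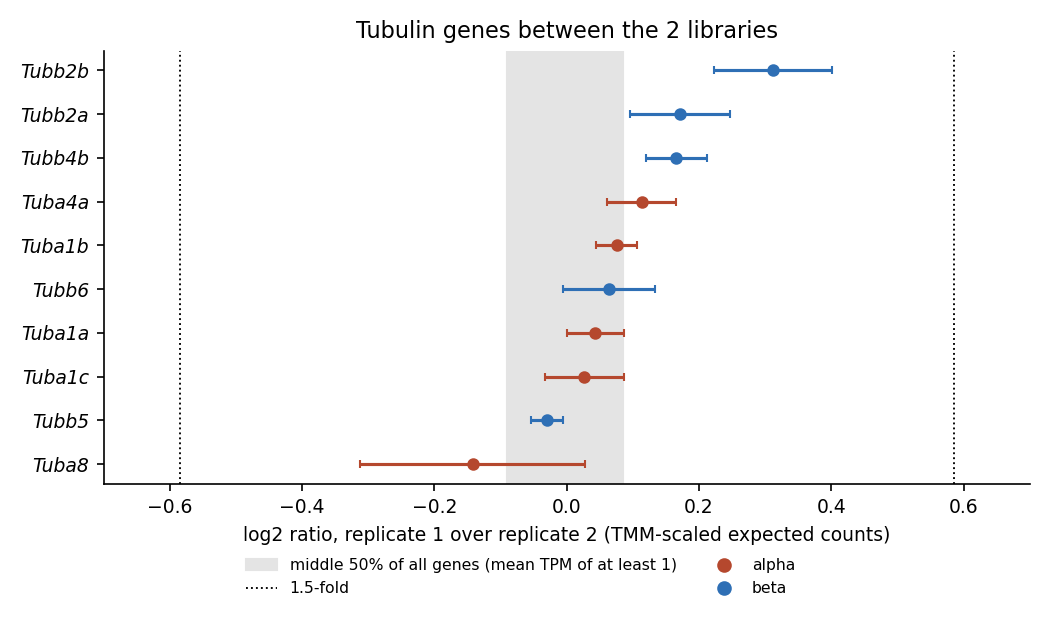
Log2 ratio of each tubulin gene, replicate 1 over replicate 2, on TMM-scaled expected counts, with exact 95% intervals for counting error. The grey band is the middle 50% of all genes and the dotted lines mark 1.5-fold, which no member reached. Tubb2b lies highest at 0.31 and Tuba8 lowest at -0.14.

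The largest ratios were those of 3 beta genes. Tubb2b was higher in replicate 1, with 2397 expected counts against 1791 in replicate 2, a log2 ratio of 0.31 (interval 0.22 to 0.40). Tubb2a stood at 0.17 and Tubb4b at 0.17. Their ratios lay above the middle 50% of all genes. At the other end Tubb5 was at -0.03 (interval -0.05 to -0.01) and Tuba8 at -0.14, with an interval that spans 0. TMM, DESeq2 size factors and spike-ins each shift all genes by 1 constant, so a change of sign between them reflects only the distance from 0. Under spike-in scaling the median of all genes was -0.13, Tubb2b stood at 0.18, and Tuba1a, Tuba1b, Tuba1c, Tuba4a and Tubb6 lay below 0 but above that median. Without any scaling between libraries, Tubb2b made up 5.89% of the beta pool in replicate 1 and 5.10% in replicate 2, and Tubb5 50.5% and 53.9%.

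Markers of other cells also differed between the libraries. The 14 neuron and Schwann cell markers summed to 45.4 TPM in replicate 1 and 22.9 TPM in replicate 2. Uchl1, a neuronal enzyme, did not share that difference, at 14.2 and 14.6 TPM, and 2 of the 5 markers with a mean of at least 1 TPM passed 1.5-fold toward replicate 1. None of these 14 markers was at 0 in both libraries. The catecholamine enzyme Th and the synaptic protein gene Snap25 had 3 and 9 counts in replicate 1 and 0 in replicate 2, values chosen after they were seen. The proliferation markers ran the other way, at 440 and 514 TPM for 10 genes, led by Top2a at 84.5 and 98.2 TPM and Pcna at 80.7 and 94.6 TPM, with a median log2 ratio of -0.12. The 6 megakaryocyte and platelet markers summed to 13.98 and 15.12 TPM, led by Pf4 at 9.59 and 12.55 TPM, from 126 counts in each, and Itga2b at 2.38 and 1.30 TPM, from 88 and 33 counts. Of these, the 2 with a mean of at least 1 TPM had a median log2 ratio of 0.59, and Itga2b passed 1.5-fold toward replicate 1. The part of these cells in the ratios of Tubb2b, Tubb2a, Tubb4b and Tubb5 was not tested. In a bulk library, fewer cells of a type and less RNA per cell cannot be told apart.

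The remaining lists mark stromal, vascular, immune and ciliated cells. The 8 fibroblast markers summed to 1805 and 2178 TPM, led by the collagens Col3a1 and Col1a1 at 716 ± 107 and 420 ± 53.9 TPM. The 8 endothelial markers summed to 535 and 538 TPM, led by Egfl7 at 154 ± 2.47 and Cdh5 at 121 ± 1.89 TPM. The 8 macrophage markers summed to 40.3 and 56.6 TPM, led by Lyz2 at 10.4 and 19.6 TPM and Csf1r at 8.13 and 9.64 TPM. The 7 markers of motile ciliated cells that were found summed to 1.92 and 2.05 TPM, led by Rsph1 at 1.10 TPM and Ccdc39 at 0.47 TPM, with Rsph4a at 0 in both. Tubb4b, also used in cilia, had 190 ± 7.95 TPM in the same libraries.

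Which isotype a read is given to depends on how much of the sequence is shared, and 6 of the 10 members shared long stretches with other genes. Windows of 100 nt were taken from the transcript with the longest complete coding frame. Of these, 69.5% in Tuba1b also occurred in a transcript of another gene, as did 65.1% in Tuba1a and 53.4% in Tuba1c. The shares were 36.9% for Tubb2a, 29.2% for Tubb4b and 27.7% for Tubb2b. Tuba4a, Tuba8, Tubb5 and Tubb6 shared none of this length, though each shared some shorter stretches with other genes. For Tuba4a the transcript searched was Tuba4a-202, which held only 0.84% of the gene's TPM in the first quantification and 0.34% in the second. The posterior SD of the deposited counts was 0% of the count for the 4 genes with no shared 100-nt window. It was 0.186% to 1.97% for the others, lowest for Tubb4b and highest for Tuba1c.

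The genes that share windows with Tuba1a, Tuba1b and Tuba1c include 8 processed pseudogenes, retrotransposed copies of tubulin messages elsewhere in the genome. In the first quantification these took 8750 and 7518 expected counts in replicates 1 and 2, beside 31756 and 28270 for the 3 genes themselves. Gm14150 on chromosome 2 was given 108 and 109 TPM, Gm3226 on chromosome 13 106 and 101 TPM, and Gm6682 on chromosome 12 33.1 and 32.3 TPM. These 3 were chosen after their values were seen. The first 2 stood above Tuba1c in that quantification, though their posterior SD was only 2.02% to 2.46% of the count.

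The second quantification divided counts among these genes differently. Gm14150 was given 2.74 and 3.15 TPM and Gm6682 to 6.54 and 6.29 TPM, while Gm3226 was at 167 and 157 TPM. Tuba1b took 20286 and 17970 estimated counts there, against 17815 and 15677 in the first. Over Tuba1a, Tuba1b and Tuba1c with the genes that share their windows, the second quantification differed in count by -6.01% and -5.69% from the first, a smaller change than that of the pseudogenes alone, at -46.5% and -48.1%. The sum for the family changed less than its division among Tuba1b and its copies. Without the genes that share their windows, Tuba1a, Tuba1b and Tuba1c together rose by 5.16% and 5.59%. Adding those genes thus did not make the change in the sum smaller. With all such genes added to the pools, an alternative chosen after the values were seen, the log2 ratio of alpha to beta was 0.41 in the first quantification and 0.26 in the second. Whether reads from the pseudogene loci or from the tubulin genes make up these counts was not tested.

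The beta genes had fewer such copies. Tubb4b-ps1, a processed pseudogene of Tubb4b on chromosome 5, had 14.7 and 12.6 TPM, and 27.5 and 24.1 TPM in the second quantification. It was the only pseudogene with a symbol beginning Tub and a mean of at least 1 TPM in the first. Gm49450, annotated as a coding gene that spans Tuba1b and Tuba1a on the same strand, had 0 counts in both libraries, as chosen after its value was seen. Tuba4a overlaps Stk16, a kinase gene on the opposite strand with 29.7 and 29.3 TPM, also named after its values were seen. The setting for strand used in counting is not given in the sources used here, so counts in that overlap are uncertain.

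The second quantification raised all 10 members, but unequally. Over 12083 nuclear protein-coding genes its TPM was a median of 1.30-fold of the first, and among the members it ran from 1.10-fold to 1.70-fold, with 3 of 10 above that median. These were Tuba4a at 1.70-fold, Tubb5 at 1.56-fold and Tuba1b at 1.44-fold. The counts of Tubb5 differed by only 0.84% and 1.82% between quantifications, and those of Tuba4a by 7.32% and 8.29%. Tuba4a had 279 and 277 TPM in the second, above Tuba1a at 225 and 229 TPM and Tubb4b at 221 and 209 TPM. This reverses its order with both genes. Summed over all transcripts of each gene, Tubb5 stayed highest at 625 and 690 TPM, Tuba1b next at 561 and 561 TPM and Tuba8 lowest at 10.6 and 11.5 TPM. Within the second quantification all 9 neighbouring pairs did not overlap.

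Tubb5 and Tuba4a also differed in which transcripts were credited. Of the 25 annotated transcripts of the 10 genes, 15 held at least 10% of their gene in either quantification, and Tuba1a, Tuba8 and Tubb2a have a single transcript each. In Tubb5 the coding transcript Tubb5-201, of 2649 nt, held 93.6% ± 0.783 of the gene's TPM in the first and 64.0% ± 1.74 in the second. Tubb5-204, a 979-nt transcript that keeps an intron and is annotated as not coding, held 5.04% ± 0.447 in the first and 35.1% ± 1.48 in the second. In counts it held 1.82% and 13.1%. Tubb5-201 alone had 408 and 433 TPM in replicates 1 and 2 in the second, below the coding Tuba1b-201 at 559 and 557 TPM. In the first, Tubb5-201 had 379 and 409 TPM and Tuba1b-201 386 and 388 TPM. The lead of Tubb5 over Tuba1b therefore did not hold in the second on these coding transcripts, nor in replicate 1 of the first. A short transcript weighs more in TPM than in counts. The second tables subtract a median of 344.1 and 341.1 nt from the length, taken over long transcripts only. In the first the median was 99 nt, over features of any length in the gene tables.

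Tuba4a was the least settled gene. Tuba4a-201, annotated without its start codon, held 47.4% ± 1.91 of its TPM in the first quantification and 25.4% ± 1.61 in the second. Tuba4a-206, which lacks part of the coding frame, held 35.8% ± 3.05 and 43.9% ± 1.76. Tuba4a-203, of 782 nt, held 0.02% in the first and 29.2% ± 0.219 in the second, and Tuba4a-207, of 346 nt, held 12.5% ± 0.914 and 0. These shares differed more between the quantifications than between the libraries. The only annotated transcript with a complete coding frame, Tuba4a-202, held 0.84% ± 0.165 and 0.34% ± 0.0826.

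**Figure D4:**
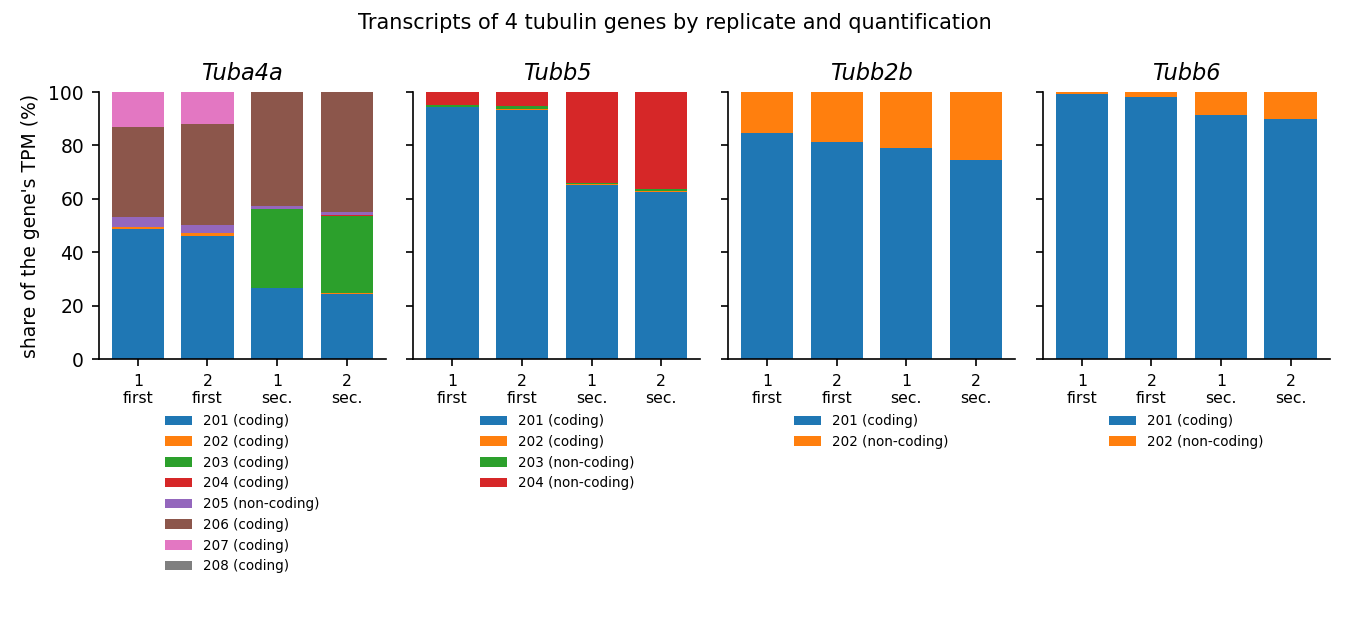
Share of the gene's TPM, in percent, held by each annotated transcript of Tuba4a, Tubb5, Tubb2b and Tubb6, for replicates 1 and 2 in the first and the second (sec.) quantification. Legends give the transcript number and whether the annotation classes it as coding. In Tubb5 the intron-keeping transcript 204 is near 5% in the first and near 35% in the second.

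Tubb2b and Tubb6 showed smaller rises in the TPM share of a transcript annotated as not coding. The non-coding transcript Tubb2b-202, of 430 nt, held 16.98% ± 2.51 of the gene's TPM in the first quantification and 23.2% ± 3.01 in the second, from 3.15% and 1.95% of its counts. The intron-keeping Tubb6-202 held 1.26% ± 0.816 and 9.32% ± 0.898. Every described transcript of Tuba1b, Tuba1c and Tubb4b held more than 98% of its gene in both quantifications.

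Tubulin chains fold only with help, and that machinery was expressed nearly in full. Prefoldin, the complex that captures nascent chains, had all 6 of its genes above 1 TPM, with a sum of 299 ± 2.93 TPM, led by Pfdn5 at 147 ± 1.12, Pfdn1 at 41.1 ± 0.184 and Pfdn6 at 35.5 ± 0.389 TPM. The chaperonin CCT, the closed chamber in which tubulin and actin fold, had 8 of 9 genes above 1 TPM and a sum of 746 ± 10.5 TPM. Its leading subunits were Tcp1 at 132 ± 1.62, Cct3 at 114 ± 0.544 and Cct8 at 92.4 ± 3.08 TPM. The exception, named after its value was seen, was Cct6b, the testis form, at 0.10 TPM. The 8 expressed subunits, which the complex holds in equal number, lay between 66.9 and 132 TPM in the first quantification. In the second, Tcp1 stayed highest at 204 and 199 TPM, while Cct3 had 95.4 and 95.6 TPM, below Cct8 at 156 and 148 TPM. Whether these ranges are narrow for a complex was not tested.

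The cofactors that join folded alpha and beta chains were all detected. The 7 genes summed to 203 ± 8.75 TPM, led by Tbca, which holds beta tubulin, at 94.2 ± 4.79 TPM. Tbcb, which holds alpha tubulin, had 36.2 ± 1.75 TPM and the small GTPase Arl2 28.7 ± 1.61 TPM. Ttc5, the autoregulation factor that reads the first residues of the chain, had 13.6 and 14.6 TPM.

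Enzymes of the alpha tubulin modifications were present on both sides of each cycle. Atat1, which acetylates the luminal lysine, had 9.18 ± 1.29 TPM, and the deacetylases Sirt2 and Hdac6 had 26.9 ± 2.75 and 15.1 ± 0.813 TPM. Vash1 and Vash2, the carboxypeptidases that cut off the final tyrosine, had 24.7 ± 1.44 and 13.9 ± 0.12 TPM, and their partner Svbp 18.7 ± 0.361 TPM. Ttl, the ligase that puts the tyrosine back, was the lowest of these 4 at 8.28 and 7.96 TPM, and is named outside the rule, after its value was seen.

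Many genes of glutamylation and glycylation, the addition of glutamate or glycine chains to the tails, were low. Of the 12 ligases of the TTLL family, 4 had at least 1 TPM in both libraries in the first quantification and 6 in the second. Ttll1 had 10.2 ± 1.39 TPM, Ttll5 9.18 ± 1.76 TPM and Ttll4 8.72 and 11.3 TPM in replicates 1 and 2, while Ttll2 and Ttll6 had 0 counts in both. Of the 6 enzymes that trim the glutamates, 3 passed 1 TPM, with Agtpbp1 at 19.8 ± 4.06, Agbl5 at 5.32 ± 0.12 and Agbl3 at 3.03 ± 0.0424 TPM.

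Most genes of the lists that start, bind and cut the filaments were expressed. All 11 nucleation genes had at least 1 TPM, led by the scaffold Akap9 at 23.4 ± 2.03, and by the ring components Tubgcp2 at 21.3 ± 1.35 and Mzt1 at 21.1 ± 2.55 TPM. Of 15 lattice-binding genes 14 did, led by the spectraplakin Macf1 at 196 and 204 TPM, Map4, the main non-neuronal microtubule-associated protein, at 132 ± 4.14 TPM and Map7d1 at 90.0 ± 13.3 TPM. Of 11 end-binding genes 10 did, led by the stabiliser Clasp1 at 159 ± 8.87 and by Mapre2 and Mapre1, which track growing ends, at 83.1 ± 0.177 and 75.8 ± 2.06 TPM. Stathmins bind free dimers, and here 1 gene made up almost all of the sum of 158 ± 13.03 TPM. That gene was Stmn1 at 155 ± 13.5 TPM, with Stmn2 at 2.64 ± 0.608 and Stmn4 at 0.50 TPM. Of the 7 severing enzymes 6 passed, led by Spast at 18.4 ± 1.36, Fignl1 at 9.54 ± 1.03 and Katna1 at 8.14 ± 1.29 TPM.

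**Figure D5:**
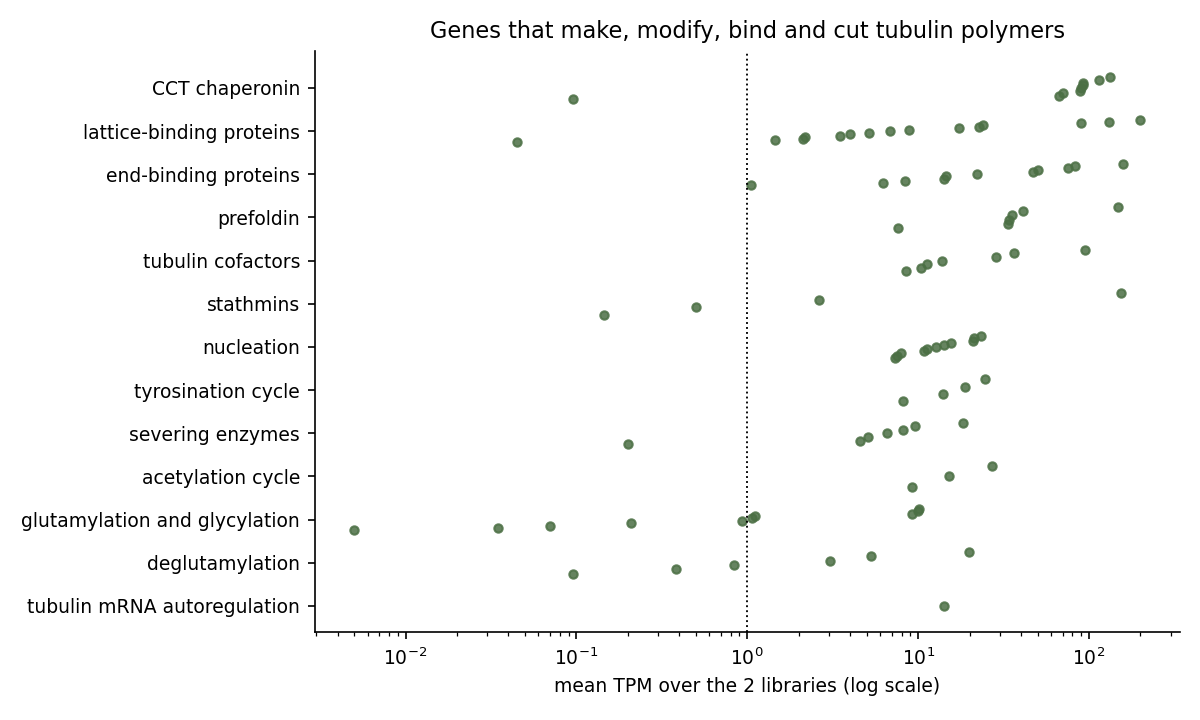
Mean TPM over both libraries, on a log scale, of each gene in 13 lists of the tubulin pathway, with 1 point a gene and the dotted line at 1 TPM. Lists run from the highest summed TPM at the top to the lowest at the bottom, and genes at 0 in both libraries are not drawn. The CCT genes other than Cct6b lie between 66.9 and 132 TPM, while the glutamylation and glycylation list spreads over more than 3 log10 units.

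Over these 13 lists, 79 of 96 genes had at least 1 TPM in both libraries in the first quantification, and 82 in the second. Of the 81 with a mean of at least 1 TPM, 0 passed 1.5-fold toward replicate 1 and 0 toward replicate 2, read against the same background of 2.05% and 1.90%. List medians of the log2 ratio ran from -0.19 for glutamylation and glycylation to 0.21 for the stathmins, which rests on 2 genes. The leaders named are those of the first quantification. In the second, Mzt1 at 38.2 and 42.4 TPM and Cdk5rap2 at 33.2 and 43.4 TPM stood above Akap9 at 25.9 and 31.3 TPM. Pfdn2, at 75.4 and 80.8 TPM, stood above Pfdn1 at 66.0 and 78.0 TPM. Cdk5rap2 and Pfdn2 are named after their values were seen.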

How the data were processed

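Total RNA was measured in 2 heart libraries, 1 group. The deposited gene and transcript tables are on mm10 with annotation M21, per the accompanying notes. In the first quantification, made from transcriptome alignments, the authors deposited expected counts, TPM, posterior mean counts and TPM, posterior SDs and, per the file headers, each transcript's share of its gene as a percent. The second transcript tables, with the column layout of kallisto, hold estimated counts and TPM as deposited by the authors. Neither the quantification programs with their versions nor the read length is given in the sources used here. Libraries held 36175363 and 32509660 expected counts.

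TPM were summed per gene for the second tables. Expected counts were rounded and scaled by TMM (edgeR 4.0.16, R 4.3.3) or, as an alternative, DESeq2 1.42.0 size factors or spike-ins, and ratios took a prior count of 0.5. The ratio was tested on simulated data. Neighbours in order of level were called apart when every library of one lay above every library of the other. Transcripts of at least 10% of their gene in either quantification were described. Coding spans came from the GENCODE M21 annotation, identities from global alignments (Biopython 1.88), and shared 100-nt windows were searched on the same strand in all annotated transcripts. Other work used Python 3.11.15 with pandas 2.3.3, numpy 2.4.6 and scipy 1.17.1, and matplotlib 3.10.9.

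The members, lists and rules were chosen with earlier results of these data known. Named genes were the 10 members, all other tubulin genes, tubulin pseudogenes with a symbol beginning Tub and a mean of at least 1 TPM, the 3 highest of each pathway list with those at 0 in both libraries, and the 2 highest of each cell type list. Of the marker symbols, Ahsp and Dnai1 were not found. Single values of a few marker genes and a few sequences are not reported here. No p-value was computed.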

Additional observations from a re-analysis of the deposited data

How the results depend on the processing

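All 10 members kept at least 1 TPM in both libraries at thresholds of 0.5 and 5 and in the second quantification. The alpha over beta log2 ratio (main value 0.07) was 0.10 in the second quantification, -0.22 on counts not divided by length, 0.050 with Tub-named pseudogenes added, and 0.41 and, in the second, 0.26 with all window-sharing genes added. Tubulin's share of TPM (0.166%) was 0.230% in the second quantification, 0.162% by posterior means, 0.231% on counts, and 0.192% and 0.2502% with window-sharing genes added. Of nuclear protein-coding TPM alone, tubulin's share was 0.363% in the first quantification and 0.354% in the second, so it was not higher there on that denominator. Tuba1b's share of the alpha pool (45.8%) was 47.2% in the second quantification, and 35.5% and 41.2% with those genes added. Tubb5's share of the beta pool (52.2%) was 59.3% in the second quantification, 63.1% on counts and 57.7% in the second with those genes added. The median ratio between libraries (0.07) was -0.064 under spike-in scaling, where that of all genes was -0.13, and 1 member, Tubb2b, passed 1.2-fold against 14.4% of all genes. The causes of these moves were not tested, beyond the added genes and the length division themselves.

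With either library left out, the pool ratio ranged from 0.07 to 0.08, tubulin's share from 0.164% to 0.167%, Tuba1b's share from 45.7% to 45.9% and Tubb5's from 50.5% to 53.9%. Ratios between libraries cannot be formed from 1 library. No paired analysis was possible because there is 1 group. With 2 libraries an SD has 1 degree of freedom.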
